A study of Schizosaccharomyces pombe with 2 samples.

Results

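DNA replication genes encode the proteins that find and open replication origins, unwind and copy DNA, and supply its building blocks. A list of 52 such genes of the fission yeast Schizosaccharomyces pombe was set against the array's gene names and their synonyms, and 49 of them, with 1 probe set each, were measured among 2896 named S. pombe genes. The list takes in 12 roles, from the origin recognition complex to ribonucleotide reductase. SD5, strain ST3479, carried a subtelomere deletion and was set against JP1225, the wild-type. Both have the mating type h-, and cells were harvested while growing exponentially at 32 °C in the rich medium YES. Subtelomeres are the regions next to the telomere repeats, and which ones are missing from SD5 is not given in the sources. Polyadenylated RNA went onto 1 array per strain. There was therefore no replicate error and no test, and strain, culture, RNA preparation and array cannot be told apart.

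Replication starts when the origin recognition complex marks origins and, with Cdc18 and Cdt1, loads the MCM ring in an inactive form. Kinases and loading factors then turn the ring into an active helicase with Cdc45 and the GINS complex, and polymerases alpha, delta and epsilon copy the strands behind it. In fission yeast growing exponentially, S phase is short and falls near cell separation, and several replication genes are transcribed in a wave at the G1/S boundary under MBF, a transcription factor complex built on Cdc10, Res1 and Res2. In RNA from a whole culture, fewer cells in S phase and less RNA of a gene per cell cannot be told apart.

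Over the 4999 S. pombe probe sets with a value, the median signal was 998 in SD5 and 1168 in the wild-type. Ratios below are SD5 over wild-type on the log2 scale, after subtracting the median over 4847 probe sets above background in both arrays, which removed a shift of -0.20. The background, set by probe sets without an S. pombe target, was 26.6 in SD5 and 17.7 in the wild-type. The 3′ to 5′ signal ratio of the actin control probe sets, which reflects how complete the labelled RNA was, was 2.33 in SD5 and 2.18 in the wild-type. Of the markers of h- (M) cells, all 7 probe sets of 5 genes were above background in both arrays. So were both probe sets of map2 and map3, genes of the opposite mating type, whose signals summed to 263 in SD5 and 271 in the wild-type.

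The 49 replication genes had close levels in both arrays. All 49 had a log2 ratio within 0.3 of 0 after centring, a limit chosen after the values were seen. So did 95.6% of the 4847 probe sets, and 97.7% of the 4009 with a mean log2 signal in the range of the 49. Their log2 ratios ran from -0.26 to 0.29, with a median of -0.00075, and their quartiles lay at -0.081 and 0.068. The 2864 probe sets of named genes above background in both had a median of 0.0016. None of the 49 was at least 2-fold lower in SD5, against 0.815% of 4905 probe sets with a ratio, and none was at least 2-fold higher, against 0.0612%. Below 0 were 25 of the 49, beside 50.6% of all probe sets, and above 0 were 24, beside 49.4%. The largest difference was 1.22-fold. Before centring, SD5 had the lower signal in 46 of the 49 genes and the higher signal in the other 3, which were orp3, orp4 and drc1. Of all probe sets above background in both arrays, 95.2% were lower in SD5 before centring.

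**Figure D1:**
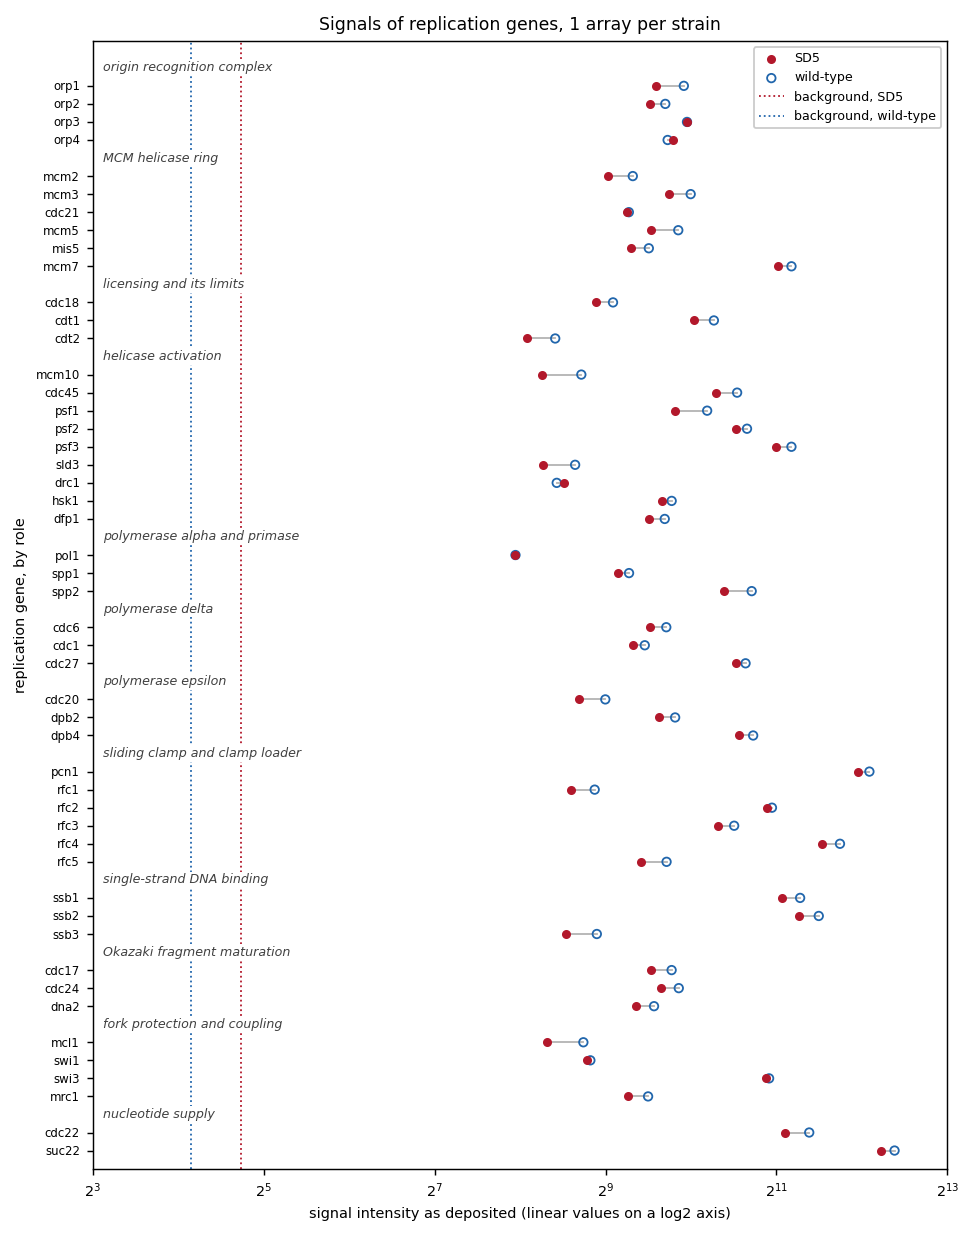
Signal of each replication gene in SD5 (filled points) and in the wild-type (open circles), as deposited, on a log2 axis, with genes grouped by role and dotted lines at the background of each array. Each point is 1 probe set on 1 array. All points lie far to the right of both backgrounds. SD5 is the lower point for 46 of 49 genes, beside 95.2% of all probe sets above background in both.

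With 1 array per strain, the only scale for a ratio is the spread of other probe sets of like signal on the same pair of arrays. The probe sets were put into 20 classes by mean log2 signal, and the spread of log2 ratios in a class was given as a robust SD, a scaled median absolute deviation, which is not a replicate error. It lay between 0.053 and 0.17 in the classes that hold replication genes. Within 1 robust SD of their class median were 32 of the 49, against 65.9% of all probe sets above background in both. No replication gene was more than 2 robust SDs below its class median, against 4.29% of the probe sets. More than 2 above it were 4 of the 49, drc1, orp4, orp3 and swi3, against 4.37% of the probe sets.

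**Figure D2:**
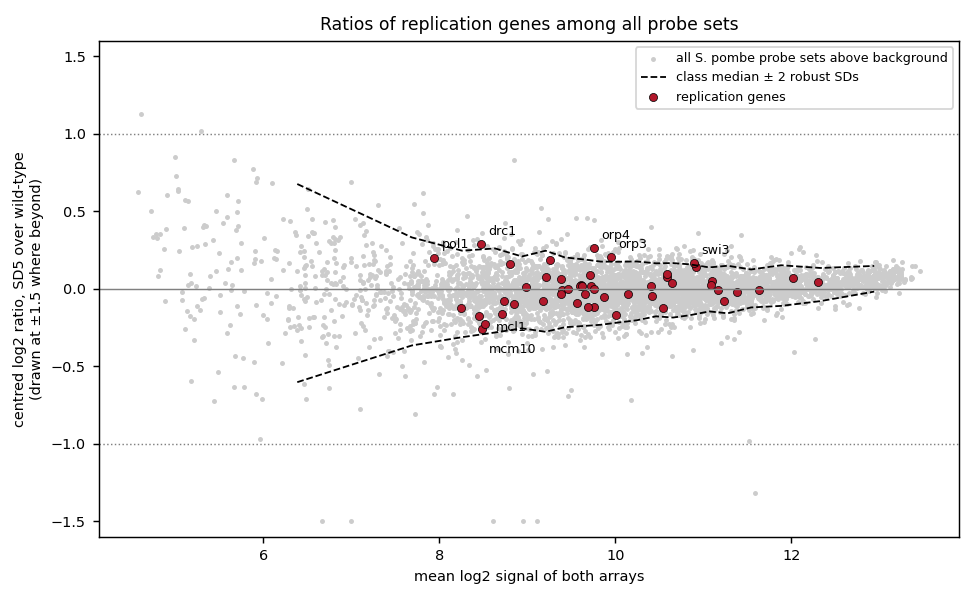
Centred log2 ratio of SD5 over wild-type (vertical axis) against the mean log2 signal of both arrays (horizontal axis) for the 4847 S. pombe probe sets above background in both (grey) and the 49 replication genes (red). Dashed lines join the class medians ± 2 robust SDs, and dotted lines mark a 2-fold difference. The red points stay between -0.26 and 0.29, and 4 of them lie above the upper dashed line or its class limit.

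The origin recognition complex, which binds origins through the cell cycle, gave the highest median of the roles, 0.11 over 4 measured genes. Of these, 3 were above 0, beside 49.4% of all probe sets. With centring on hybridisation controls 2 were below 0 and 2 above (median 0.062), with 70.3% of all probe sets below 0. Without centring the split was also 2 and 2 (median -0.089), with 95.2% of all probe sets below 0. The gene orp4 (current symbol orc4, SPOM_SPBP23A10.13), whose product in fission yeast holds the AT-hook region that contacts AT-rich origin DNA, had a signal of 884 in SD5 and 847 in the wild-type (log2 ratio 0.26, 2.88 robust SDs above its class). For orp3 (orc3, SPOM_SPAC3H1.01C) the signals were 993 in SD5 and 991 in the wild-type (0.21, 2.33 robust SDs). These were the only subunits with an SD5 signal above the wild-type's before centring. The ATPase subunit gene orp1 (orc1, SPOM_SPBC29A10.15) had the lowest ratio of the complex, at 772 in SD5 and 966 in the wild-type (-0.12), and orp2 (orc2) stood at 733 in SD5 and 831 in the wild-type (0.022). The ratios of the 4 subunits thus spanned 0.38, more than any other role except helicase activation and fork protection. The listed names orp5 and orp6 matched no symbol or synonym in the reference. The table does hold genes with the symbols orc5 and orc6, which were kept out of every count and looked up after the other values were seen. Their signals were 1418 in SD5 and 1609 in the wild-type for orc5 (0.021), and 1087 in SD5 and 1125 in the wild-type for orc6 (0.15).

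The MCM ring, the core of the replicative helicase, was measured for all 6 listed subunits. Of these, 4 had ratios below 0 and 2 above (median -0.031), beside 50.6% of all probe sets below 0. After loess or quantile normalization the split was 3 and 3, with 51.1% and 44.9% of all probe sets below 0. With centring on hybridisation controls it was 5 and 1 (70.3%), and without centring 6 and 0 (95.2%). The highest was cdc21 (current symbol mcm4, SPOM_SPCC16A11.17), a subunit gene known from cell cycle mutants, at 610 in SD5 and 618 in the wild-type (0.18, 1.53 robust SDs above its class). Next came mcm7 (SPOM_SPBC25D12.03C), at 2081 in SD5 and 2312 in the wild-type (0.051). The lowest were mcm5 (SPOM_SPAC1B2.05), at 738 in SD5 and 923 in the wild-type (-0.12), and mcm2 (SPOM_SPBC4.04C), at 524 in SD5 and 639 in the wild-type (-0.082). The other 2 subunits, mcm3 (-0.054) and mis5 (current symbol mcm6, -0.0090), lay between these. Although the subunits form 1 ring, their ratios spanned 0.30, and each of the 6 lay within 2 robust SDs of its class.

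Licensing genes, which load the MCM ring or limit its loading to once per cycle, were close to 0 or slightly below. The loader gene cdc18 (SPOM_SPBC14C8.07C), the fission yeast counterpart of budding yeast CDC6, had a signal of 475 in SD5 and 544 in the wild-type (log2 ratio 0.0081). Its partner cdt1 (SPOM_SPBC428.18) had 1045 in SD5 and 1233 in the wild-type (-0.035). The gene cdt2 (SPOM_SPAC17H9.19C), whose product directs the Cul4 ubiquitin ligase to Cdt1 and to the ribonucleotide reductase inhibitor Spd1, had 271 in SD5 and 340.4 in the wild-type (-0.13). All 3 lay within 1 robust SD of their class.

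Factors that activate the helicase held both the lowest and the highest ratio of all 49 genes. The lowest was mcm10 (current symbol cdc23, SPOM_SPBC1347.10), needed for origin unwinding after the helicase is assembled, at 305 in SD5 and 421 in the wild-type (log2 ratio -0.26, 1.20-fold lower, -1.85 robust SDs from its class median). Its ratio stood at percentile 3.45 of all probe sets above background in both. The highest was drc1 (SPOM_SPAC6B12.11), the counterpart of budding yeast SLD2 and a substrate of cyclin-dependent kinase, at 365 in SD5 and 345 in the wild-type (0.29, 1.22-fold higher, 2.21 robust SDs above its class). It stood at percentile 97.7. The gene sld3 (SPOM_SPAC24H6.06), whose product brings Cdc45 to origins, was on the low side with 308 in SD5 and 400.1 in the wild-type (-0.17). Sld3 and Drc1 both carry the kinase signal that starts helicase activation, and the ratios of their genes lay on opposite sides of 0.

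The GINS complex, which completes the active helicase, also had subunit genes on both sides of 0. The gene psf1 (SPOM_SPBP23A10.09) had 903 in SD5 and 1167 in the wild-type (log2 ratio -0.17, -1.48 robust SDs from its class median). In contrast psf2 was at 1478 in SD5 and 1613 in the wild-type (0.078), and psf3 at 2042 in SD5 and 2312 in the wild-type (0.024). The remaining subunit gene, sld5, was not on the replication list and had 4135 in SD5 and 4586 in the wild-type (0.054). After centring on the probe sets, psf1 was thus the only GINS gene below 0. With centring on hybridisation controls psf3 was below 0 too (-0.028). Without centring every GINS gene was, as were 95.2% of all probe sets. Each GINS gene lay within 2 robust SDs of its class. The helicase partner gene cdc45 stood at 1249.9 in SD5 and 1488 in the wild-type (-0.049). The kinase gene hsk1, the counterpart of budding yeast CDC7, had 807 in SD5 and 875 in the wild-type (0.087), and that of its regulatory subunit, dfp1, had 728 in SD5 and 827 in the wild-type (0.019). Of the 9 activation genes, 4 were below 0 and 5 above, with a median of 0.019, beside 50.6% of all probe sets below 0. With centring on hybridisation controls 6 were below and 3 above (median -0.033), with 70.3% of all probe sets below 0. Without centring 8 were below and 1 above.

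**Figure D3:**
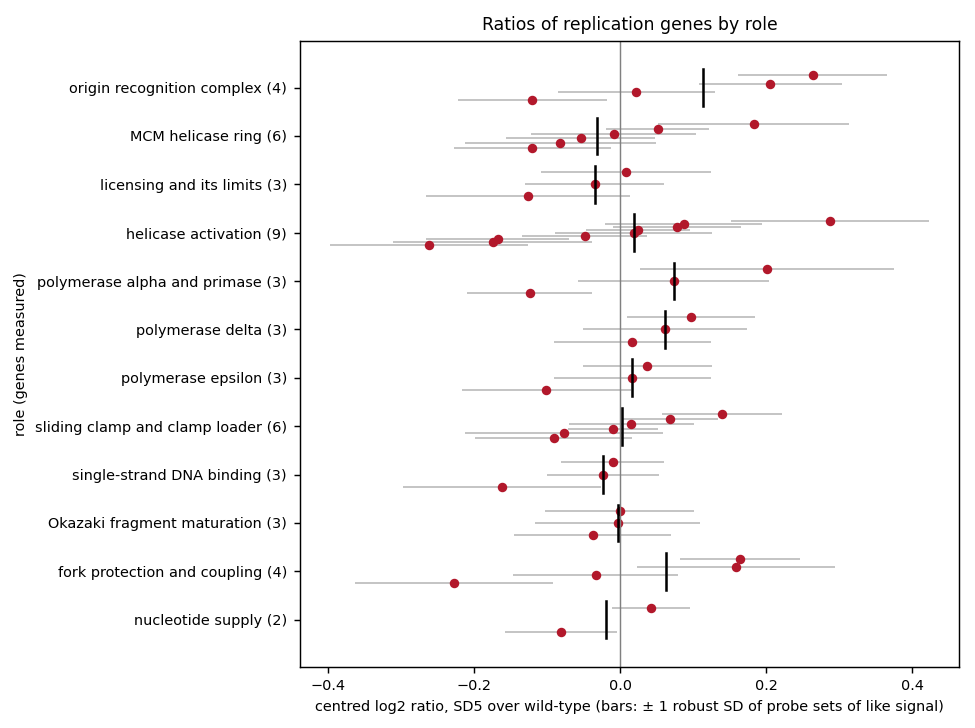
Centred log2 ratio of SD5 over wild-type (horizontal axis) for the 49 replication genes by role (vertical axis, number of genes measured in brackets). Points are genes, grey bars are ± 1 robust SD of probe sets of like signal, and black strokes are medians of a role. The origin recognition complex and helicase activation spread widest together with fork protection, and the genes of polymerase delta and of Okazaki fragment maturation lie close together.

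The replicative polymerases had ratios between -0.12 and 0.20 over 9 subunit genes, of which 7 were above 0, beside 49.4% of all probe sets. With centring on hybridisation controls, which put 70.3% of all probe sets below 0, 4 of the 9 were above 0. Without centring, where 95.2% of all probe sets were below 0, none of the 9 was above 0. Polymerase alpha and primase lay down the RNA-DNA primers. Its catalytic subunit gene pol1 (SPOM_SPAC3H5.06C) had 246 in SD5 and 247 in the wild-type (log2 ratio 0.20), in a class with a robust SD of 0.17. The primase genes split: spp1 (SPOM_SPAC6B12.10C), the catalytic subunit, had 566 in SD5 and 619 in the wild-type (0.074), while spp2 (SPOM_SPBC17D11.06), the large subunit, had 1335 in SD5 and 1675 in the wild-type (-0.12). Each of the 3 lay within 1.5 robust SDs of its class.

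Polymerase delta, which copies the lagging strand, had the 3 genes on the replication list within 0.081 of each other on the log2 scale. The catalytic subunit gene cdc6 (SPOM_SPBC336.04) had 736 in SD5 and 838 in the wild-type (0.016). Its accessory subunit genes were cdc1, at 638 in SD5 and 704 in the wild-type (0.062), and cdc27, at 1481 in SD5 and 1594 in the wild-type (0.097). A further subunit gene, cdm1, was among the other replication factors and had 837 in SD5 and 949.6 in the wild-type (0.021). The 3 listed genes were above 0 after centring on the probe sets. With centring on hybridisation controls 1 of them was below 0, beside 70.3% of all probe sets. Without centring all 3 were, beside 95.2%.

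Polymerase epsilon, which copies the leading strand, was measured for 3 of its 4 listed genes. The catalytic subunit gene cdc20 (SPOM_SPBC25H2.13C) had 414 in SD5 and 511 in the wild-type (log2 ratio -0.10). The accessory genes dpb2, at 791 in SD5 and 900.3 in the wild-type (0.017), and dpb4, at 1511 in SD5 and 1695 in the wild-type (0.037), lay nearer to 0. The array's gene table has a probe set under the symbol dpb3, but its gene identifier belongs to bur6 in the reference, which gives the symbol dpb3 to another gene. That probe set (1296 in SD5 and 1610.2 in the wild-type, -0.11) was therefore left out of the counts.

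Around the fork, the sliding clamp and its loader had 3 genes above and 3 below 0, with a median of 0.0027, beside 50.6% of all probe sets below 0. With centring on hybridisation controls 4 were below and 2 above, with 70.3% of all probe sets below 0. After quantile normalization 2 were below and 4 above (44.9%), and without centring all 6 were below (95.2%). The gene pcn1, for the clamp PCNA that tethers polymerases to DNA, had 3961 in SD5 and 4350.2 in the wild-type (log2 ratio 0.068). Among clamp loader genes, rfc2 (SPOM_SPAC23D3.02) was highest with 1889 in SD5 and 1974 in the wild-type (0.14, 1.79 robust SDs above its class), and rfc5 (SPOM_SPBC83.14C) lowest with 685 in SD5 and 839.8 in the wild-type (-0.091). The large subunit gene rfc1 stood at 386 in SD5 and 469 in the wild-type (-0.077), while rfc3 (0.015) and rfc4 (-0.010) were nearer to 0. RPA, which coats single-stranded DNA, had all 3 genes below 0, beside 50.6% of all probe sets. Its large subunit gene ssb1 was at 2139 in SD5 and 2480.45 in the wild-type (-0.010) and ssb2 at 2466 in SD5 and 2885 in the wild-type (-0.023). Both lay within 1 robust SD of their class. The small subunit gene ssb3 (SPOM_SPCC23B6.05C) was further off, at 370.5 in SD5 and 477 in the wild-type (-0.16, -1.10 robust SDs from its class median).

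Genes for joining Okazaki fragments, the short pieces of the lagging strand, had ratios closest to each other. The DNA ligase gene cdc17 had 740.5 in SD5 and 875 in the wild-type (log2 ratio -0.037). The helicase and nuclease gene dna2 had 657 in SD5 and 759 in the wild-type (-0.0032), and cdc24, whose product works with Dna2, had 805 in SD5 and 927 in the wild-type (-0.00075). The 3 ratios lay within 0.037 of each other, and their side of 0 depended on the scaling. Here 3 were below 0, beside 50.6% of all probe sets. After loess normalization 1 was below and 2 above, with 51.1% of all probe sets below 0.

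Fork protection genes, which couple the helicase to the polymerases and to the checkpoint, spread over 0.39. The gene mcl1 (SPOM_SPAPB1E7.02C), the counterpart of budding yeast CTF4 that links polymerase alpha to the helicase, had 317 in SD5 and 428 in the wild-type (log2 ratio -0.23, -1.59 robust SDs from its class median), the second lowest ratio of the 49. Swi1 and Swi3 form a complex that steadies stalled forks and is needed for the fork pause that precedes mating-type switching. Their genes were both on the high side, swi1 with 439 in SD5 and 453 in the wild-type (0.16) and swi3 (SPOM_SPBC30D10.04) with 1878 in SD5 and 1929 in the wild-type (0.16, 2.09 robust SDs above its class). The checkpoint mediator gene mrc1 was near 0, at 614 in SD5 and 723 in the wild-type (-0.033).

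Ribonucleotide reductase makes deoxyribonucleotides. Its large subunit gene cdc22 (SPOM_SPAC1F7.05) had 2192 in SD5 and 2670.3 in the wild-type (log2 ratio -0.081), and its small subunit gene suc22 (SPOM_SPBC25D12.04) had 4771 in SD5 and 5334 in the wild-type (0.042). Both lay within 1 robust SD of their class.

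The genes of the MBF programme were mostly a little below 0. Of a list of 16 MBF target genes, 13 were measured, with 11 below and 2 above 0, a median log2 ratio of -0.080 and none 2-fold lower or higher. Of all probe sets with a ratio, 50.6% were below 0. After quantile normalization, which put 44.9% of all probe sets below 0, 10 of the 13 targets were below 0 and 3 above. The split was the same with the background as a pseudocount. Among the 8 replication genes on that list 6 were below 0, from mcl1 (-0.23) and cdt2 (-0.13) through cdc22, cdt1, mrc1 and ssb1, while cdc18 and pol1 (0.20) were above, with a median of -0.034. The 5 other targets measured were all below 0 here. They include the cohesin gene rad21, at 378 in SD5 and 499 in the wild-type (-0.19), and the corepressor gene nrm1, at 1009.98 in SD5 and 1316 in the wild-type (-0.18). The mismatch repair gene msh6 had 747 in SD5 and 969.96 in the wild-type (-0.17). The kinase gene mik1 had 79.1 in SD5 and 91.8 in the wild-type (-0.011), in a class with a robust SD of 0.32.

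The MBF subunit genes and regulators were below 0 in all 5 genes measured, beside 50.6% of all probe sets, with a median of -0.12. The gene res1 had 352 in SD5 and 451 in the wild-type (log2 ratio -0.16), rep2 had 836 in SD5 and 1045 in the wild-type (-0.12), and cdc10 had 562 in SD5 and 662 in the wild-type (-0.034). The dimmest, res2, had 126 in SD5 and 153 in the wild-type (-0.073). It was above 0 after quantile normalization (0.067) and with the background as a pseudocount (0.025). Quantile normalization put 44.9% of all probe sets below 0. The gene nrm1 is on both lists. Each of these genes lay within 2 robust SDs of its class, and the 2 lists were described by counts only.

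Further replication factors outside the 49 were split evenly, with 10 of the 20 measured below 0 and 10 above (22 listed, median log2 ratio 0.0022, none 2-fold lower or higher). The lowest was the topoisomerase II gene top2, at 577 in SD5 and 749 in the wild-type (-0.17), and the highest was elg1, of an alternative clamp loader, at 396 in SD5 and 414 in the wild-type (0.14). The Cdt2 ubiquitin ligase list, with the inhibitor Spd1, had 4 of 6 genes below 0 (median -0.063), beside 50.6% of all probe sets. It ranged from the cullin gene pcu4, at 287 in SD5 and 397 in the wild-type (-0.26), to the signalosome gene csn2, at 631 in SD5 and 654 in the wild-type (0.15), with spd1 at 3509 in SD5 and 4185 in the wild-type (-0.051). Of 9 replication checkpoint genes 6 were below 0 (median -0.021), beside the same 50.6%. After quantile normalization 4 were (median 0.0063), beside 44.9% of all probe sets. With centring on hybridisation controls all 9 were, beside 70.3%. The damage checkpoint kinase gene chk1 was the lowest of all genes on these lists, at 143 in SD5 and 219 in the wild-type (-0.41, -2.24 robust SDs from its class median), and the clamp gene rad9 was at 420.1 in SD5 and 575 in the wild-type (-0.25). The replication checkpoint kinase gene cds1 was at 1156 in SD5 and 1397 in the wild-type (-0.070). No gene on these lists was 2-fold lower or higher.

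**Figure D4:**
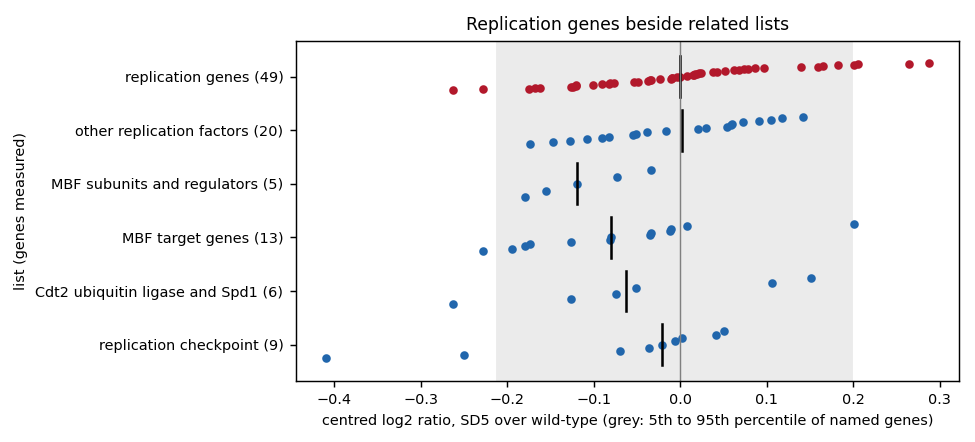
Centred log2 ratio of SD5 over wild-type (horizontal axis) for the 49 replication genes (red) and the measured genes of 5 related lists (blue), by list (vertical axis), with black strokes at the medians and grey from the 5th to the 95th percentile of named genes (-0.21 to 0.20). The MBF lists have medians of -0.12 and -0.080, the replication genes one near 0, and chk1 at -0.41 is the lowest point.

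In the reference genome, 18 of the 49 genes lie on chromosome I, 26 on II and 5 on III, and none is close to a chromosome end. The nearest is ssb1, the 74th protein-coding gene from its end of chromosome II. On chromosome III the nearest is mcm3, at place 130, and on chromosome I sld3, at place 188. The median log2 ratio was -0.0054 on chromosome I, 0.012 on II and -0.023 on III. There were 5 pairs of replication genes within 5 protein-coding genes of each other. The adjacent mcm7 (0.051) and suc22 (0.042) had ratios within 0.0091 of each other. The adjacent spp1 (0.074) and drc1 (0.29) differed by 0.21, and psf1 (-0.17) and orp4 (0.26), which are 4 genes apart, by 0.43.

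The ratio varied little with the length of the gene. Across the 49 genes, which share the same pair of arrays and run from 516 to 7410 bases in the reference, Spearman's rho of the ratio with gene length was -0.11, beside -0.20 across the 2864 named probe sets. With the mean log2 signal it was 0.22 across the 49 genes and 0.16 across the named probe sets. These are descriptions across genes, which are not independent replicates.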

How the data were processed

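Polyadenylated RNA of SD5 and of the wild-type was measured on 1 array each, with the GeneChip 3′ IVT Express kit, 5 ng of RNA and in vitro transcription for 4 hours at 40 °C, per the labels' protocols. The authors deposited 1 intensity on a linear scale per probe set and array. GCOS 1.4 is named, with no role, per the submitters' processing notes. How probes were summarised, scaled and masked is not stated in the sources. Of 10928 rows, 5748 were 0 in both arrays and were left out, and 181 were control or reporter probe sets.

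Genes were named through the platform's gene identifiers and the reference assembly ASM294v3. The platform table holds 5538 probes, 5518 with 1 symbol and 20 with several, and 5390 array rows are not in it. Of the S. pombe probe sets, 2085 had no gene name here. A listed name went to the gene with that current symbol, otherwise to one with that synonym: 43 names matched a symbol, 7 a synonym and 2 none. For 4 names a synonym of another gene (bgs1, spf1, slp1, bur6) was passed over.

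Signals below background (the 95th percentile of 79 control and reporter probe sets with no target in S. pombe) were set to it before log2, and all 49 genes were above it, at 9.26 times or more in SD5 and 13.9 times or more in the wild-type. Where only 1 array was below background, the ratio is a bound. The number of arrays limits the precision. The limit of 0.3 for ratios near 0 was chosen after the values were seen. Robust SDs are 1.48 times the median absolute deviation. Steps were tested on simulated data with planted changes of more than 2-fold, which does not test ratios as small as those of the 49 genes. The members, lists and alternatives were chosen with earlier results of these data known. The planned look at promoter sequences was not made, since no sequence was used here. Values were given for the 6 lowest and highest genes, MBF targets, and up to 2 at each end of a role or list; further members, orc5, orc6, bur6, sld5 and cdm1 were added after their values were seen. Python 3.11.15, numpy 2.4.6, pandas 2.3.3, statsmodels 0.14.6 and matplotlib 3.10.9 were used.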

Additional observations from a re-analysis of the deposited data

How the results depend on the processing

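Under 8 alternatives, 1 of them (centring on hybridisation controls) chosen after earlier results were known, none of the 49 replication genes was 2-fold lower or higher. The same 4 genes lay more than 2 robust SDs above their class, with none below, under the 5 alternatives that can change this measure. Centring choices that move every ratio by 1 constant cannot change it. Without centring the median log2 ratio of the 49 was -0.20, which is the shift of all probe sets, and all 49 ratios moved by more than 1 robust SD. It was -0.053 with centring on hybridisation controls, 0.017 after loess and 0.027 after quantile normalization, and the split of genes below and above 0 was then 35 and 14 (with 70.3% of all probe sets below 0), 22 and 27 (51.1%), and 20 and 28 (44.9%). Choosing the brightest probe set of a gene could not change a value, since each gene has 1. Using 10 signal classes could not change a ratio. Leaving out the shift of -0.20 could not bring ratios between -0.26 and 0.29 to 2-fold. No paired analysis was possible because each strain has 1 array. Signal over background did not limit the 49 genes, but the arrays are too few for any error on a ratio.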
